A study of Mus musculus with 12 samples.

Results

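The comparison described here is that of apelin-knockout with wild-type mouse hearts after aortic banding, surgery in which a constricted aorta loads the left ventricle with high pressure. It rests on 6 of the 12 arrays of the series, taken by their titles: 3 from hearts of knockout mice and 3 from hearts of wild-type mice, all of them banded. The other 6 arrays, from sham-operated hearts of both genotypes with 3 arrays a group, enter the fit and serve as the comparison without banding. The labels give the genotype only as wild type or knockout of apelin, and no allele, strain, age, sex or duration of banding, so they do not say which part of the gene was deleted or in which cells. Each array is labelled a biological replicate of heart total RNA. Nothing says that each came from a separate animal, so the p-values measure the spread between these samples.

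Apelin is a peptide cleaved from the product of Apln, a gene on the X chromosome. It binds the receptor encoded by Aplnr, which couples to inhibitory G proteins, is abundant on endothelium, and is also known in the heart for raising contractile force and opposing the actions of angiotensin II. Pressure overload is known to bring on the fetal gene program, matrix deposition and a turn away from fatty acid oxidation.

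Intensities are linear values per probe set, a group of short probes for 1 transcript, as the authors deposited them. Each array's mean without the outer 2% of values was 150, so the arrays had been scaled to that value. Differences are log2(intensity + 16) in knockout minus wild type, which understates the change of dim probe sets, and come with the standard error (SE) of a limma fit. The threshold was a p under 0.05 after Benjamini-Hochberg adjustment, and probe sets under it are said to have passed. Probe sets or genes are called "apart" where all 3 knockout arrays lay above, or all 3 below, all 3 wild-type arrays.

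Some arrays stood apart from their groups. The array labelled knockout banded 1 is called by that label throughout, although its Apln reading, given below, was above every wild-type banded array. It held transcripts of lung airway. Its summed level of 10 lung epithelium markers was 2251, against 352 to 434 in the other 5 banded arrays. Scgb1a1, the secretory protein of club cells, reached 1094 there against at most 49.8. Wild-type banded 3 had Xist at 1255, against 43.3 to 89.2 in the other banded arrays, and the Y-linked Eif2s3y at 0.468, against 282 to 395, so it differed from them in sex-linked transcripts. It was also nearly without the atrial myosin light chain Myl7, at 19.6 against 896 to 7621. In wild-type banded 2 the summed immediate-early genes were highest, at 32863 against 8338 to 19545 in the other 5, and so was the sum of 9 neutrophil markers, at 2273 against 240 to 494. The 3′ to 5′ log2 ratio of Actb, a sign of RNA integrity or labelling, was -0.22 to -0.17 in the knockout banded arrays and 0.08 to 0.28 in the wild-type banded arrays, while that of Gapdh was -0.35 to -0.32 and -0.39 to -0.34. The part of each of these in the results below was not tested, except where values without an array are given. In whole-heart RNA, fewer cells of a type and less RNA per cell cannot be told apart.

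Across all 34945 probe sets assigned to 1 gene, 0% passed in limma: 0 probe sets had an adjusted p under 0.05, and the smallest adjusted p was 0.114. At an unadjusted p under 0.05 there were 3691 (10.6%), of which 1698 were higher and 1993 lower in knockout. Knockout arrays lay wholly above wild-type arrays in 2365 probe sets (6.77%) and wholly below in 3077 (8.81%). With 1 probe set a gene, that of highest mean, these were 1442 of 18193 genes (7.93%) higher and 1432 (7.87%) lower, and the median difference over all genes was -0.01.

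Knockout banded 1 decided the count. Without it 777 probe sets passed, 414 higher (1.18%) and 363 lower (1.04%), or by gene 254 higher (1.4%) and 204 lower (1.12%). Of those 777, chosen without knockout banded 1, that array lay between the wild-type mean and the mean of the other 2 knockout arrays in 517, at or beyond the wild-type mean in 240 and at or beyond the knockout mean in 20. Its median position was 0.16, where 0 is the wild-type mean and 1 the mean of knockout banded 2 and 3. Only 384 of the 777 were apart with all 3 knockout arrays. Below, the genes described most fully are therefore given with the value of every array.

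**Figure D1:**
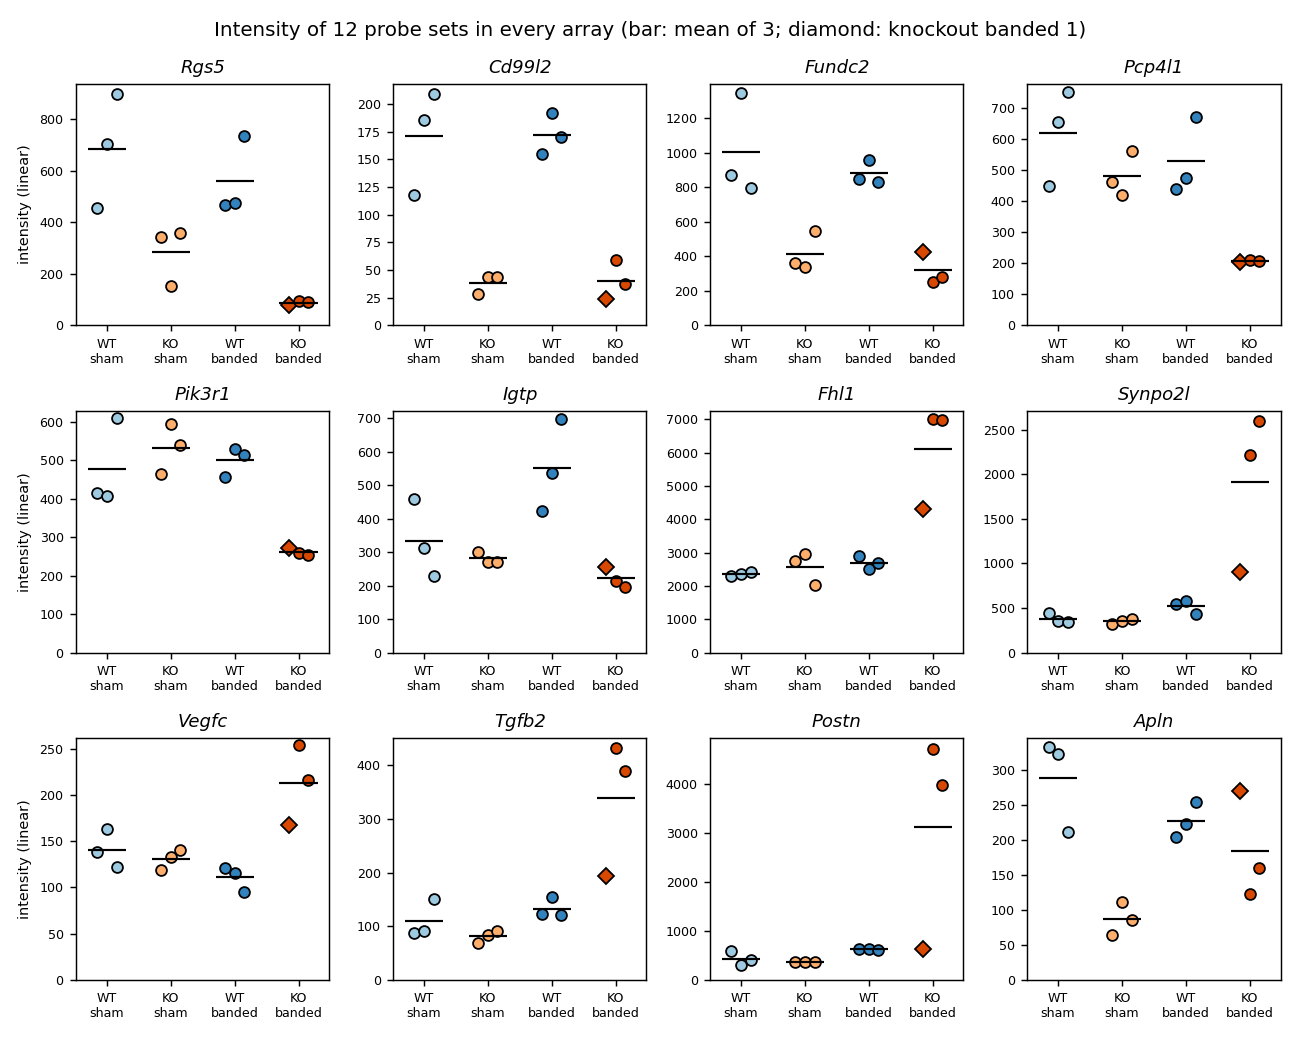
Linear intensity (y axis) of 12 probe sets in each of the 12 arrays, in 4 groups of 3 (x axis; WT wild type, KO apelin knockout); horizontal bars are group means and the diamond is knockout banded 1. In the upper row and in Pik3r1 and Igtp all 3 knockout banded arrays lie below all wild-type banded arrays, whereas for Synpo2l and Postn the diamond lies nearer to the wild-type arrays than to the other knockout banded arrays.

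The targeted gene itself was not lower in every knockout banded array. The probe set for Apln, the only one on the array, read 271, 123 and 160 in knockout banded hearts and 205, 223 and 255 in wild-type banded hearts. Knockout banded 2 and 3 lay below every wild-type array and knockout banded 1 above them, so the groups overlapped. The difference was -0.34 (SE 0.26, adjusted p 0.697), and an exact two-sided permutation test over the 6 arrays gave p = 0.4, where 0.1 is the smallest it can give. In sham hearts the same probe set read 63.7, 111 and 85.4 in knockout and 333, 323 and 212 in wild type, without overlap. The labels do not say whether the probe set lies in the deleted part, so its reading does not settle the genotype of an array.

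The receptor gene Aplnr, by contrast, was higher in knockout, at 868, 1756 and 1143 against 854, 625 and 420. The groups did not overlap, but 868 and 854 nearly met, and the difference of 0.97 (SE 0.48) had an adjusted p of 0.522. Its second, dimmer probe set read 146, 302 and 194 against 149, 126 and 98.7 and overlapped. Of 21 measured genes of apelin, angiotensin, endothelin and adrenergic signalling (30 listed), 1 was apart and higher and 4 apart and lower, against 7.93% and 7.87% of all genes, and their median difference was -0.05 against -0.01 over all genes. The 4 lower genes included 2 regulators that speed up GTP hydrolysis by G proteins, Rgs2 and Rgs5, and the G protein subunits Gnaq and Gnas. Gnaq was apart on its brightest probe set only (-0.31), and its other probe sets overlapped, with differences of -0.15 to 0.08. Rgs2, which damps the Gq signals of angiotensin and adrenergic receptors, read 351, 138 and 133 in knockout and 571, 522 and 784 in wild type, a difference of -1.63 (SE 0.39, adjusted p 0.187). Of the 21 genes it alone passed without knockout banded 1. The angiotensin-converting enzyme gene Ace read 310, 616 and 654 against 355, 304 and 185, with overlap through knockout banded 1. The angiotensin receptor gene Agtr1a read 758, 538 and 426 against 685, 615 and 825.

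The probe sets described next are the 15 of smallest p in the lower direction among those with a mean intensity of at least 100 and arrays apart; none passed, and their adjusted p lay between 0.114 and 0.116. Rgs5, a marker of pericytes and vascular smooth muscle, had the smallest p of all through 1 dim probe set. It read 79, 95.1 and 89.7 in knockout banded hearts and 469, 474 and 733 in wild-type banded hearts, a difference of -2.44 (SE 0.30, 95% interval -3.10 to -1.78, adjusted p 0.114). The other 3 probe sets of Rgs5 were also lower in mean, by less: the brightest read 3924, 4152 and 3896 against 4921, 4694 and 5470, a difference of -0.33. The size of the Rgs5 difference therefore depended on the probe set, while the means of all 4 pointed one way.

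Cd99l2, which encodes a membrane protein used by leukocytes in crossing endothelium, read 23.9, 58.8 and 37.7 in knockout and 155, 192 and 170 in wild type on its leading probe set (-1.79, SE 0.25). A second probe set read 29.9, 23.5 and 37 against 74.5, 118 and 103, but the other 2 probe sets of the gene were slightly higher in knockout, by 0.20 and 0.26. Fundc2, which encodes a protein of the mitochondrial outer membrane, read 425, 252 and 278 against 849, 960 and 830 (-1.45, SE 0.23). Its brightest probe set differed by 0.01, at 2096, 1808 and 2081 against 1942, 1962 and 2014. In both genes, then, part of the probe sets differed widely and part did not.

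These 2 genes also differed without banding. In sham hearts Cd99l2 read 28.4, 43.3 and 43.4 in knockout against 118, 185 and 209 in wild type, and Fundc2 read 364, 339 and 544 against 872, 1345 and 796. The banded and sham differences of Cd99l2 were -1.79 and -1.76, and those of Fundc2 -1.45 and -1.23. Both genes lie on the X chromosome as Apln does, with 116 protein-coding genes between Apln and Cd99l2 and 202 between Apln and Fundc2 in the RefSeq gene order. The leading Rgs5 probe set was also lower in sham hearts, at 343, 153 and 359 against 454, 703 and 897 (-1.25).

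The rest of the 15 were not apart in the same direction in sham hearts. Pcp4l1, a relative of the calmodulin regulator Pcp4, read 205, 211 and 209 against 439, 476 and 672 (-1.26, SE 0.19). Pik3r1, the p85 regulatory subunit of phosphoinositide 3-kinase, read 271, 259 and 253 against 457, 529 and 513 (-0.90, SE 0.14). All 4 Pik3r1 probe sets were apart and lower, by -0.92 to -0.60, and its sham arrays overlapped at 464, 595 and 540 against 415, 408 and 611. Flt1, the vascular endothelial growth factor receptor 1, read 465, 507 and 517 against 706, 679 and 662 (-0.45, SE 0.08). Mmut, the mitochondrial methylmalonyl-CoA mutase, read 1200, 782 and 750 against 1725, 1584 and 1871 (-0.94, SE 0.16). The actin crosslinker Lima1 (-0.71), the SUMO protease Senp7 (-0.90), the Mediator subunit Med1 (-1.07), the Hedgehog co-receptor Gas1 (-0.86), the mitochondrial membrane protein Mpv17 (-0.95), the lipid droplet formation protein Fitm1 (-0.79) and Ccdc141 (-0.63) were also among the 15. Every one of the 15 passed without knockout banded 1, against 1.04% of all probe sets passing lower there. They were chosen by small p from these same arrays, so passing again is not separate support. Of these genes Med1, Gas1, Mpv17, Cd99l2 and Fundc2 had at least 1 probe set of the opposite sign. The brightest probe set of Med1 differed by 0.09, with overlap. The other probe sets of Lima1 (-0.21 to -0.04) and of Senp7 (-0.13 and -0.05) overlapped, and those of Flt1 differed by -0.42 to -0.01.

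In the higher direction the 15 chosen by the same rule had adjusted p between 0.116 and 0.142. Fhl1, a LIM-domain protein of the sarcomere that is known to rise in hypertrophy, read 4322, 7007 and 6982 in knockout and 2908, 2502 and 2690 in wild type (1.14, SE 0.19, 95% interval 0.73 to 1.55, adjusted p 0.116). Its sham arrays read 2750, 2956 and 2018 against 2307, 2362 and 2406, so the genotypes overlapped there. Synpo2l, a Z-disc protein of heart and skeletal muscle, read 906, 2220 and 2597 against 546, 576 and 434 (1.72, SE 0.29), and a brighter probe set read 3794, 6555 and 7112 against 2719, 2545 and 1995. On these 3 probe sets knockout banded 1 was the lowest knockout array and above every wild-type array. On other probe sets the groups overlapped. Another of Synpo2l, brighter than its leading probe set, read 424, 4080 and 5734 against 2027, 1401 and 1541 (0.40, SE 0.69). The second, dimmer probe set of Fhl1 read 98.3, 118 and 131 against 77.6, 61.5 and 99.3.

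Vegfc, the ligand that drives growth of lymphatic vessels, read 168, 254 and 216 against 121, 116 and 95.4 (0.84, SE 0.16), a second probe set showed the same difference of 0.84, and the remaining, dimmer one overlapped with a difference of 0.20. The ubiquitin enzymes Ube2g1 (0.59), Usp47 (0.71) and Otulin (0.78), the TGF-beta-activated kinase Map3k7 (0.53), the Hsp70 co-chaperone Bag2 (0.56), the paraoxonase Pon2 (0.61), the importin Tnpo3 (0.49), the splicing protein Snrpd3 (0.61), the general transcription factor Gtf2b (0.55), Eid1 (0.57), Sccpdh (0.59) and Fam214b (0.54) were the others. Ube2g1 had the smallest p among them, at 331, 306 and 295 against 194, 214 and 196, with narrow spread in both groups, while its brighter probe set read 1432, 1480 and 1772 against 1360, 1330 and 1410, a difference of only 0.18. On the brightest probe set of Usp47 the difference was 0.44, with overlap. All 15 passed without knockout banded 1, against 1.18% of all probe sets passing higher there. They too were chosen by small p from these same arrays, so passing again is not separate support. Map3k7, Tnpo3, Sccpdh and Fam214b were also apart and higher in sham hearts, by 0.18, 0.22, 0.31 and 0.16, and the rest were not. Probe sets of opposite sign existed for Usp47, Synpo2l, Map3k7, Pon2, Tnpo3, Snrpd3 and Sccpdh.

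Genes of the interferon response and antigen presentation were lower in mean in knockout banded hearts, though none passed. Of 29 measured genes (32 listed), 25 had a negative difference, 13 were apart and lower and 0 apart and higher, against 7.87% and 7.93% of all genes. The median was -0.28 against -0.01 over all genes, and -0.22 without knockout banded 1. The immunity-related GTPases led. Igtp read 257, 214 and 196 in knockout against 423, 535 and 697 in wild type (-1.23, SE 0.22, adjusted p 0.117), and Iigp1 read 975, 592 and 472 against 1423, 1827 and 1765 (-1.34, SE 0.25, adjusted p 0.117). These 2 genes passed without knockout banded 1, against 1.12% of all genes passing lower there.

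The other 11 genes apart and lower were the signal transducer Stat2, the guanylate-binding GTPases Gbp2 and Gbp3, the class I heavy chains H2-K1 and H2-D1 and their light chain B2m, the class II genes H2-Aa and Cd74, the peptide transporter Tap1, and the immunoproteasome subunits Psmb8 and Psmb9. Stat2 read 85.3, 96.6 and 102 in knockout against 113, 122 and 120 in wild type (-0.28, SE 0.12). H2-K1 read 2320, 2181 and 2424 against 3726, 2946 and 3842 (-0.59, SE 0.28, adjusted p 0.499). B2m read 2642, 3132 and 3720 against 4643, 4597 and 4748 (-0.57, SE 0.28). Other members overlapped: Ifit3 read 128, 166 and 164 against 146, 205 and 119, Irf7 106, 126 and 119 against 108, 142 and 104, and Ifit2 was higher in mean, at 93.1, 150 and 195 against 88, 102 and 104. In sham hearts the list's median was -0.14 with 1 gene apart and lower, against 6.29% of all probe sets. Under quantile normalization, which forces the same distribution on each array, the banded median stayed at -0.28. Then 12 genes were apart and lower, against 6.58% of all genes. Immune cell marker sums overlapped: the summed level of 14 macrophage markers was 3876 to 6267 in knockout and 4706 to 6863 in wild type, and that of 10 lymphocyte markers 403 to 478 and 426 to 473. The neutrophil sum, given above, was highest in wild-type banded 2.

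Stretches before the transcription start of 4 of these genes are shown because they carry the core of the interferon-stimulated response element (GAAA and GAAA parted by any 2 bases, on either strand, in capitals), in 3 genes that were apart and lower and in 1 gene whose arrays overlapped. They are from RefSeq on build GRCm38.p6, read 5′ to 3′ along the gene; all 4 genes lie on the + strand.
Igtp, chr11:58199497-58199555: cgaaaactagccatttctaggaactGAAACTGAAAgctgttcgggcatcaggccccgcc
Gbp2, chr3:142620579-142620638: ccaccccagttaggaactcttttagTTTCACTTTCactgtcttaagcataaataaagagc
B2m, chr2:122147523-122147582: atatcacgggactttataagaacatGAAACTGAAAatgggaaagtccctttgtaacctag
Ifit1, chr19:34640779-34640838: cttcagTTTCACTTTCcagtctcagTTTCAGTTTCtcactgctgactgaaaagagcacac
The motif begins 34 bases before the start in Igtp, 59 in Gbp2 and 139 in B2m, and the nearer of the 2 in Ifit1 begins 85 bases before it. Gbp2, a guanylate-binding GTPase, read 130, 107 and 147 in knockout against 159, 201 and 169 in wild type, and Ifit1 read 54.5, 96.1 and 97.1 against 83.6, 126 and 82.2. Of the 22 measured genes of the list with a promoter sequence, 10 held the motif in the 250 bases before the start, against 3.46% of 27025 genes. It was held by 5 of the 11 genes that were apart and lower and by 5 of the 11 others, so the letters did not separate them. The gamma-activated sequence TTCNNNGAA, which reads the same on both strands and may overlap the first motif, was held by 2 of the 11 lower genes and 4 of the 11 others, against 8.13% of all genes. A match is a description of the sequence, not evidence of a bound site.

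**Figure D2:**
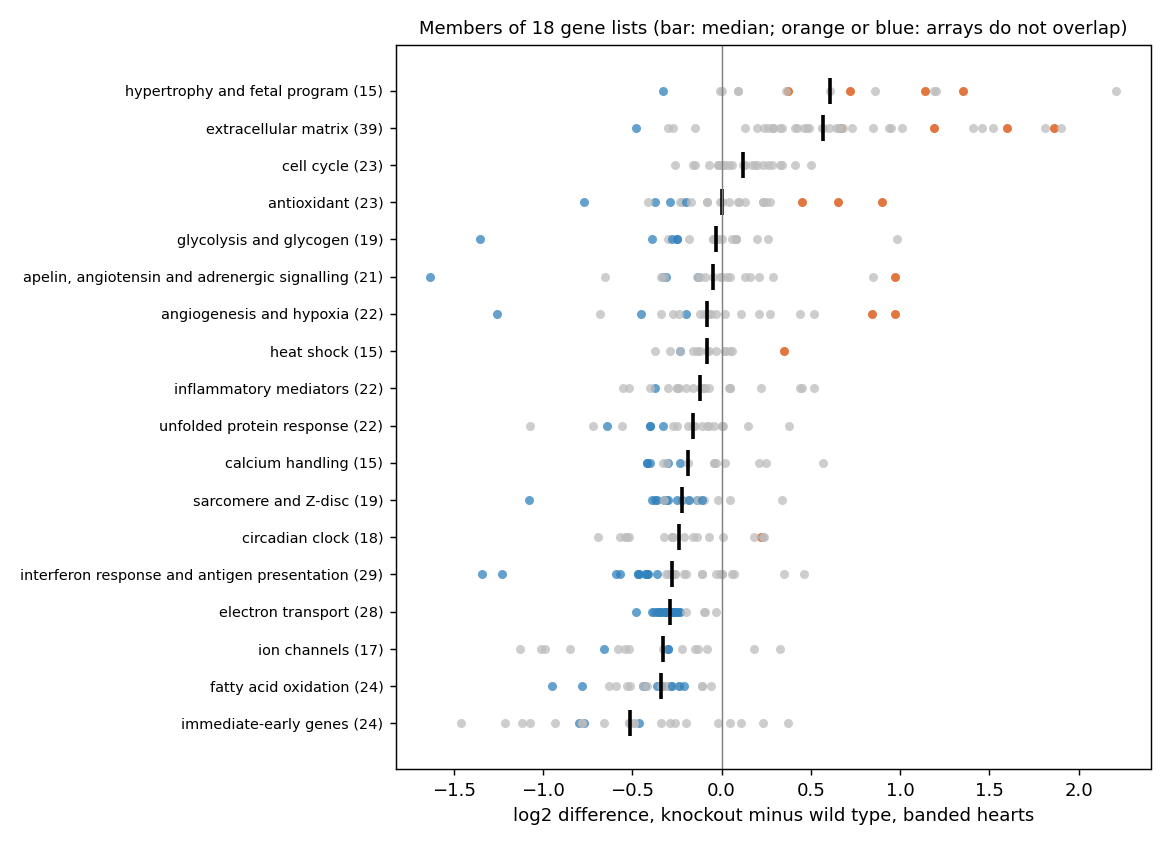
Log2 difference, knockout minus wild type in banded hearts (x axis), of each measured member (points) of 18 gene lists (y axis, number measured in brackets); black bars are medians, orange points are genes whose knockout arrays lie wholly above and blue points genes whose knockout arrays lie wholly below the wild-type arrays. The hypertrophy and extracellular matrix lists have the highest medians, 0.61 and 0.57. The electron transport list is the densest in blue points, 23 of 28, against 7.87% of all genes.

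The mean level of the matrix genes was higher in knockout banded 2 and 3 than in every wild-type banded array, and lower in knockout banded 1. Of 39 measured matrix genes (42 listed), 35 had a positive difference with a median of 0.57, but 4 were apart and higher and 1, decorin (Dcn), apart and lower, against 7.93% and 7.87% of all genes. Without knockout banded 1 the median was 0.92 and 19 of the 39 passed, all higher, against 1.4% of all genes; they included Postn, Tgfb2, Itgbl1, Lox, Thbs4, Cilp and Ltbp2. Postn, the matricellular protein periostin of activated fibroblasts, showed the split most plainly. It read 639, 4719 and 3978 in knockout against 634, 627 and 609 in wild type (1.86, SE 0.55, adjusted p 0.261). Knockout banded 1 thus read like the wild-type arrays, and the 2 others several times higher.

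The transforming growth factor ligands Tgfb2 and Tgfb1, which drive matrix production, were apart with all 3 arrays. Tgfb2 read 194, 433 and 389 against 122, 154 and 120 (1.19, SE 0.26, adjusted p 0.174), and Tgfb1 read 381, 426 and 391 against 226, 246 and 260 (0.67, SE 0.19). Tgfb1 was level across the 3 knockout arrays, and Tgfb2 was not. The dimmer probe set of Tgfb1 overlapped, with a difference of 0.12, as did 1 of Tgfb2, with 0.87. Itgbl1, an integrin beta-like secreted protein, read 133, 583 and 464 against 113, 129 and 66.3 (1.60, SE 0.41).

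The crosslinking enzyme Lox read 58.5, 448 and 365 against 81.2, 74.7 and 63.9, and Thbs4, a thrombospondin of stressed heart, 173, 946 and 606 against 159, 198 and 112. Cilp, a cartilage and heart matrix protein, read 348, 2379 and 1771 against 300, 625 and 161. The fibrillar collagen chain Col1a1 differed less, at 441, 1068 and 639 against 548, 453 and 648 (0.29, SE 0.25), and did not pass without knockout banded 1. Dcn read 3904, 5022 and 5195 against 6286, 7546 and 5785 (-0.48, SE 0.17), but was not apart under quantile normalization. The list's median was then 0.56, with 4 genes apart and higher and 0 apart and lower, against 8.44% and 6.58% of all genes. In sham hearts the list's median was -0.17, with 0 genes apart and higher and 10 apart and lower, against 3.94% and 6.29% of all probe sets. Of 12 fibroblast markers, 0 were apart and higher and 2 (Dcn and Dpt) apart and lower, against 7.93% and 7.87% of all genes, with a median of -0.18. Without knockout banded 1, 2 (Mfap4 and Pcolce) passed, both higher, against 1.4% of all genes. The summed level of these markers was 14460, 19488 and 17584 in knockout and 19778, 21758 and 17968 in wild type, lowest in knockout banded 1.

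The hypertrophy list gave the highest median of the 18 pathway lists, and none of its members passed. Of 15 measured genes (16 listed), 13 had a positive difference, the median was 0.61, and 4 were apart and higher and 1, Myh6, apart and lower, against 7.93% and 7.87% of all genes. The natriuretic peptide genes did not separate. Nppa read 7756, 9560 and 9481 in knockout against 10416, 11227 and 6009 in wild type (0.00, SE 0.49), and Nppb 4999, 8018 and 8390 against 6296, 6654 and 6660 (0.09, SE 0.46). The fetal myosin gene Myh7 read 9203, 9324 and 9091 against 10045, 6718 and 1918 (0.86, SE 0.59), where wild-type banded 3 set the lower mean. Acta1, skeletal alpha-actin, read 8138, 8235 and 8976 against 7452, 7932 and 4748 (0.37, SE 0.37). Without wild-type banded 3 the list's median was 0.16, its lowest value over the alternatives. Under quantile normalization it was 0.68, with 5 genes apart and higher and 0 apart and lower, against 8.44% and 6.58% of all genes. The difference was then -0.04 for Myh6, 0.68 for Acta1 and 0.29 for Nppa.

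Other members differed as follows. Enah, an actin regulator at the intercalated disc, read 2639, 4384 and 4472 against 2115, 2109 and 2592 (0.72, SE 0.17). Nmrk2, a kinase of nicotinamide riboside for NAD synthesis, read 186, 903 and 1603 against 89, 124 and 192 (2.21, SE 0.57), and Rcan1, a calcineurin target gene, 1069, 3585 and 3365 against 1078, 717 and 1378 (1.19, SE 0.41). Tnfrsf12a, the receptor of TWEAK, read 798, 1697 and 1859 against 721, 457 and 437 (1.35, SE 0.46) and did not overlap. Fhl1, Enah, Nmrk2, Rcan1 and Meox1 passed without knockout banded 1, all higher, against 1.4% of all genes. In sham hearts the list's median was -0.15.

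**Figure D3:**
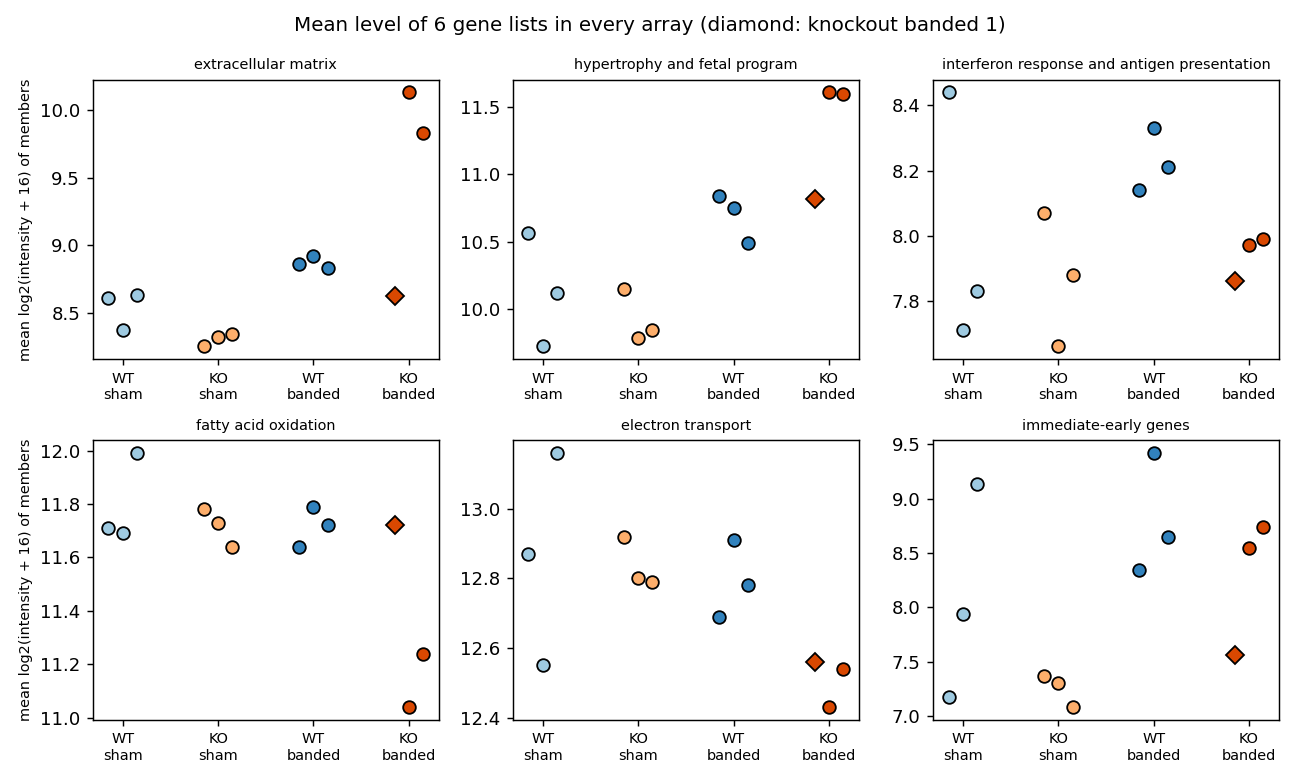
Mean log2(intensity + 16) of the members of 6 gene lists (y axis; the axes start above 0 and differ between panels) in each of the 12 arrays, in 4 groups of 3 (WT wild type, KO apelin knockout); the diamond is knockout banded 1. In the matrix panel knockout banded 1 (8.62) lies below the wild-type banded arrays (8.83 to 8.92) and the other knockout banded arrays (9.83 and 10.13) above them, and in the fatty acid oxidation panel it lies at 11.72 with the wild-type banded arrays at 11.64 to 11.79.

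Fatty acid oxidation genes were lower in the same pair of knockout arrays. All 24 measured genes (27 listed) had a negative difference, with a median of -0.34, and 10 were apart and lower, against 7.87% of all genes. Without knockout banded 1 the median was -0.47 and 7 passed, all lower, against 1.12% of all genes: Acaa2, Cpt2, Decr1, Etfdh, Ppara, Ppargc1a and Ucp3. Ppara, the nuclear receptor that switches on fatty acid oxidation genes, read 404, 265 and 303 in knockout against 445, 562 and 697 in wild type (-0.78, SE 0.20, adjusted p 0.203). Its coactivator Ppargc1a read 819, 475 and 488 against 771, 928 and 1017 (-0.63, SE 0.18), with overlap through knockout banded 1.

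Acaa2, the thiolase of the last step of mitochondrial beta-oxidation, read 4406, 1635 and 2190 against 4618, 5168 and 4806 (-0.95, SE 0.26), and its 3 probe sets gave -1.07 to -0.95. Pdk4, the kinase that shuts off pyruvate dehydrogenase, read 5696, 1293 and 2820 against 3955, 3348 and 3218, and Ucp3, a mitochondrial carrier, 685, 74.3 and 81.7 against 298, 304 and 192. In both, knockout banded 1 was the highest and knockout banded 2 and 3 the lowest of the 6 banded arrays. The sham median of the list was 0.00.

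The difference between genotypes varied with the brightness of the genes. The highest intensity on an array was 10813 to 11291 in knockout banded hearts and 11901 to 15130 in wild-type banded hearts. Among the 172 genes with a mean intensity over 5000, 118 (68.6%) were apart and lower and 1 apart and higher, with a median of -0.26. Among the 2126 genes between 500 and 2000, 165 (7.76%) were apart and lower, with a median of 0.03. These classes of intensity were chosen after the values were seen. Under quantile normalization the median of the brightest class was -0.03, and 24 were apart and lower against 16 higher.

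**Figure D4:**
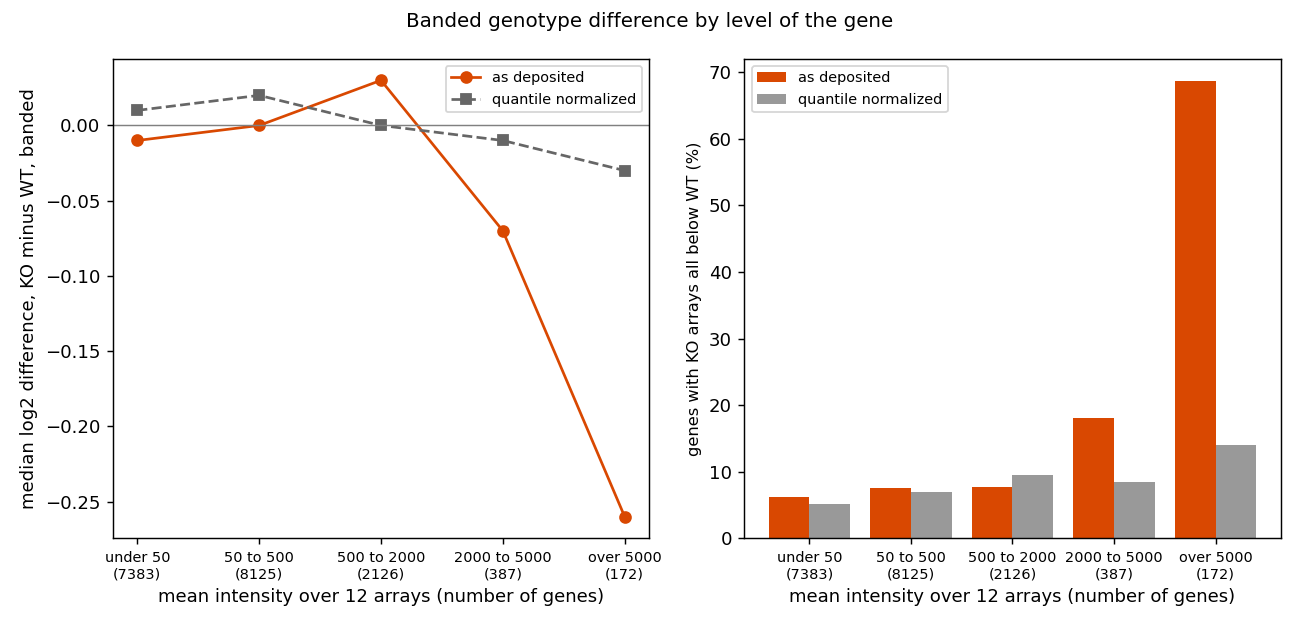
Left, median log2 difference of knockout minus wild type in banded hearts (y axis) by class of mean intensity over the 12 arrays (x axis, number of genes in brackets), as deposited (circles) and after quantile normalization (squares). Right, percentage of genes in each class whose knockout arrays lie wholly below the wild-type arrays; as deposited (left bars) it is 68.6% in the brightest class and 6.26% in the dimmest.

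Electron transport genes, the subunits of the respiratory complexes and of ATP synthase, are bright on these arrays. All 28 measured (30 listed) had a negative difference with a median of -0.29, and 23 were apart and lower, against 7.87% of all genes. After quantile normalization, however, the median was -0.07. Then 8 were apart and lower and 1 higher, against 6.58% and 8.44% of all genes. Uqcrc2, a core protein of complex III, differed most, at 4915, 4556 and 4892 against 6356, 6555 and 7101 (-0.48, SE 0.11, adjusted p 0.186). None of the 28 passed without knockout banded 1. In the sarcomere list 12 of 19 measured (20 listed) were apart and lower, against 7.87% of all genes, with a median of -0.22. After quantile normalization the median was 0.04, with 3 lower and 4 higher, against 6.58% and 8.44% of all genes. Among these genes the kinase Mylk4, of middle intensity, stood out at 957, 612 and 486 against 1404, 1121 and 1761 (-1.08, SE 0.21, adjusted p 0.139), and it alone passed without knockout banded 1. The fatty acid oxidation median was -0.24 after quantile normalization, with 2 of 24 genes apart and lower, a share near the 6.58% of all genes. The 10 ventricular cardiomyocyte markers were all apart and lower, against 7.87% of all genes. Their summed level was 87162 to 90061 in knockout and 100308 to 125720 in wild type. After quantile normalization their median was -0.04 with 2 apart and lower, against 6.58% of all genes.

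Of the 15 calcium handling genes measured (16 listed), 5 were apart and lower, against 7.87% of all genes, with a median of -0.19. After quantile normalization the median was -0.06, with 3 apart and lower, against 6.58% of all genes. Ryr2, the release channel of the sarcoplasmic reticulum, read 3769, 3666 and 3146 against 4523, 4660 and 5001 (-0.42, SE 0.13), and Atp2a2, the calcium pump, 7619, 7847 and 8355 against 9516, 12159 and 9906 (-0.40, SE 0.21). Cacnb2, a subunit of the L-type calcium channel, read 728, 746 and 685 against 868, 818 and 862 (-0.23, SE 0.08). Csrp3, Jph2 and Cacna1c differed by 0.03 or less in size.

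Ion channel genes are dimmer, and their median of -0.33 was the same after quantile normalization. Of 17 measured (20 listed), 15 had a negative difference and 3 were apart and lower, against 7.87% of all genes. Kcnh2, the channel of the rapid delayed rectifier current, read 383, 258 and 229 in knockout against 504, 414 and 453 in wild type (-0.66, SE 0.17, adjusted p 0.221). Kcnj5, a subunit of the acetylcholine-gated channel, read 319, 159 and 136 against 488, 300 and 310, and the silent subunit Kcnv2 116, 40.4 and 30.7 against 104, 131 and 140. These 3 genes passed without knockout banded 1, against 1.12% of all genes passing lower there. Kcnj5 and its partner Kcnj3 are enriched in atria, and the summed level of 11 atrial markers was 19590 to 21797 in knockout banded arrays and 44073, 37339 and 11625 in wild-type banded arrays; its part in their values was not tested.

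Of the 22 vessel growth genes measured (22 listed), 2 were apart and higher (Vegfc and Aplnr) and 3 apart and lower (Flt1, Angpt1 and Vegfb), with a median of -0.08; these shares are near the 7.93% and 7.87% of all genes. Angpt1, the ligand that stabilises vessels through Tie2, read 312, 192 and 135 in knockout against 876, 353 and 410 in wild type (-1.26, SE 0.32), and its dimmer probe set 46.9, 28.1 and 3.14 against 193, 106 and 117 (-2.00, SE 0.37, adjusted p 0.117). Hif1a, the hypoxia-inducible factor, read 639, 1028 and 920 against 498, 658 and 607. Vegfc and Hif1a (higher) and Flt1 and Angpt1 (lower) passed without knockout banded 1, against 1.4% and 1.12% of all genes. Vegfa, at 1188, 1697 and 1534 against 1571, 1194 and 1951, overlapped widely. Of 12 endothelial markers 1 was apart and higher and 1 apart and lower, shares also near those of all genes, with a median of -0.02.

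Antioxidant genes had 3 members apart and higher and 4 apart and lower of 23 measured (25 listed), against 7.93% and 7.87% of all genes, with a median of 0.00. The haem oxygenase gene Hmox1 read 71.7, 66.4 and 73.4 against 29.2, 36.5 and 25.9 (0.90, SE 0.42). Sod3, the extracellular superoxide dismutase, read 479, 706 and 607 against 450, 396 and 284 (0.65, SE 0.18), and the glutathione reductase Gsr 223, 312 and 290 against 204, 195 and 185 (0.45, SE 0.13). The dimmer Sod3 probe set read 145, 230 and 209 against 184, 205 and 183, a difference of 0.01. The glutathione transferase Gstk1 read 1038, 545 and 554 against 1161, 1171 and 1174 (-0.77, SE 0.20). Sod3 and Gsr (higher) and Gstk1 (lower) passed without knockout banded 1, against 1.4% and 1.12% of all genes.

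Immediate-early genes, which respond within minutes to stress or handling, had a median of -0.51, and 20 of the 24 measured (24 listed) were negative. Of these, 3 were apart and lower, against 7.87% of all genes: the shear-stress factors Klf2, at 641, 922 and 1050 against 1362, 1416 and 1649 (-0.77, SE 0.25), and Klf4, at 669, 692 and 745 against 792, 931 and 1232 (-0.46, SE 0.17), and the phosphatase Dusp1. The spread inside the groups was wide. Fos read 63.1, 1072 and 974 against 697, 2744 and 894, and Egr1 342, 2516 and 2462 against 1878, 5976 and 2441. The median was -0.25 without knockout banded 1, and in sham hearts it was -0.84 with 6 genes apart and lower, against 6.29% of all probe sets.

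The clock list had a median of -0.24 in banded and 0.48 in sham hearts, with 1 gene, Cry1, apart and higher among 18 measured (20 listed). Dbp, an output gene of the clock, read 911, 126 and 218 against 329, 764 and 357, so knockout banded 1 was the highest of the 6. The labels give no hour of tissue collection. Of the 22 genes of the unfolded protein response (22 listed), 4 were apart and lower (Xbp1, Sdf2l1, Canx and Hspa5), against 7.87% of all genes, with a median of -0.16. After quantile normalization the median was the same, but 2 were apart and lower, against 6.58% of all genes. Xbp1, the transcription factor of that response, read 980, 1032 and 942 against 1162, 1300 and 1463 (-0.40, SE 0.10).

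Glycolysis genes (19 measured of 22 listed) had a median of -0.03, and 0.07 after quantile normalization, with 5 apart and lower as deposited (7.87% of all genes), among them the glucose transporter Slc2a4 at 2549, 1934 and 2317 against 2750, 3311 and 2828. After quantile normalization 3 were apart and lower and 1 higher, against 6.58% and 8.44% of all genes. Pfkp, the platelet form of phosphofructokinase, read 343, 1054 and 1242 against 345, 417 and 386, and passed without knockout banded 1. Heat shock genes (15 of 16) had a median of -0.08, and 0.04 after quantile normalization, with 1 apart each way as deposited, inflammatory mediators (22 of 23) -0.12 with 1, Cxcl12, apart and lower, and cell cycle genes (23 of 24) 0.12 with 0 apart. Of 14 macrophage markers 0 were apart, with a median of -0.11, and of 10 lymphocyte and 9 neutrophil markers 1 each was apart and lower.

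The 15 probe sets with the largest higher difference among those that passed without knockout banded 1 included several matrix genes. Mfap4, a microfibril protein, read 10.5 in knockout banded 1 and 333 and 161 in the other 2, against 16.2, 18 and 7.13 in wild type. Ltbp2, a binding protein of latent TGF-beta, read 46.7, 562 and 621 against 42.9, 116 and 41.6, and the cartilage matrix gene Comp 68.4, 674 and 537 against 104, 249 and 38.5. Dio2, the enzyme that activates thyroid hormone, read 22.4, 219 and 224 against 33.5, 71 and 19.7. On the lower side stood the carboxylesterase Ces1d, at 876, 129 and 121 against 920, 686 and 993, the acyl-CoA thioesterase Acot1, at 153, 19.1 and 9.94 against 77, 145 and 79, and the muscle fructose bisphosphatase Fbp2, at 332, 41.2 and 66.1 against 250, 210 and 309. In each of these 7 genes knockout banded 1 read nearer to the wild-type arrays than to the other knockout arrays. They were chosen after their values were seen, from a ranking that left that array out. Others of the ranking went the other way. The leading Rgs5 probe set read 79 in knockout banded 1, 95.1 and 89.7 in the other 2, and 469 to 733 in wild type. The dimmer Angpt1 probe set read 46.9, then 28.1 and 3.14, and 106 to 193 in wild type.

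**Figure D5:**
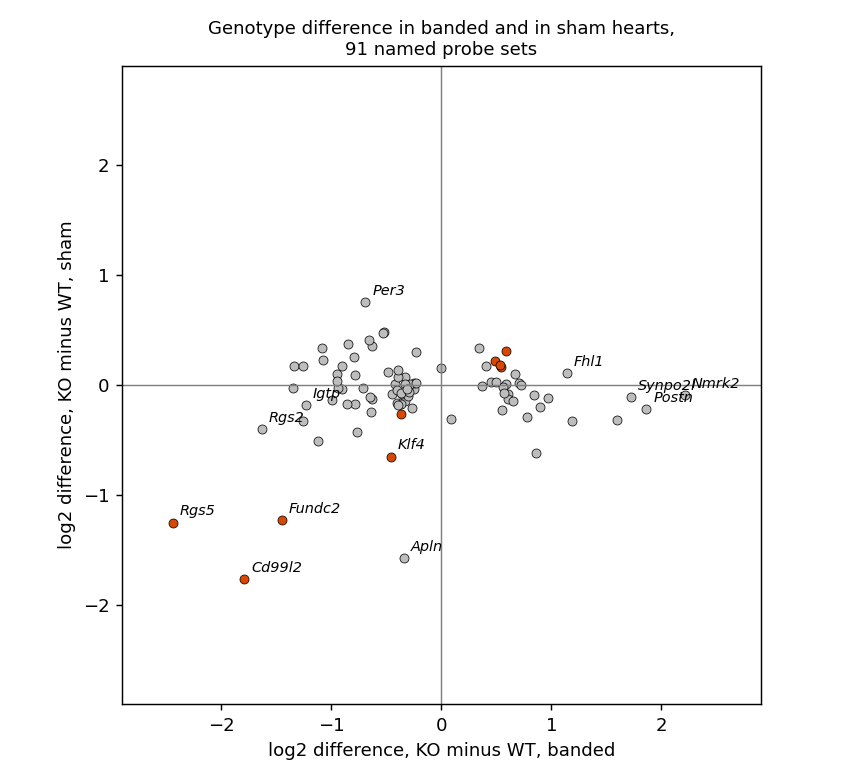
Log2 difference of knockout minus wild type in banded hearts (x axis) against the same difference in sham hearts (y axis) for the 91 named probe sets; orange points are apart in the same direction in both. Cd99l2, Fundc2 and Rgs5 lie low on both axes, Apln lies at -1.57 on the sham axis and -0.34 on the banded axis, and most other points lie near 0 on the sham axis.

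The genotype difference in sham hearts shares no arrays with that in banded hearts. In sham hearts 1 probe set passed in limma (0.00286%), a probe set of Prune2, which read 1573, 2337 and 1178 in knockout sham and 95.1, 98.3 and 99.5 in knockout banded hearts. Knockout arrays were apart and higher in 1376 probe sets (3.94%) and apart and lower in 2197 (6.29%). Of the probe sets apart in both, 113 were higher and 198 lower in both, and 95 and 127 had opposite directions. The 311 with the same direction were 5.71% of those apart in banded hearts and 8.7% of those apart in sham hearts. Of the 309 of these with a known chromosome, 4.21% lay on the X chromosome, against 3.24% of all probe sets. Among the 91 named probe sets, 9 were apart in the same direction in both, against 311 of all 34945 probe sets. Many of the 91 were named because they were apart in banded hearts, so these shares cannot be compared.

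Whether the genotype difference itself changed with banding was tested as the interaction of genotype and surgery. No probe set passed (0 of 34945, 0%), with 2582 at an unadjusted p under 0.05, and 169 passed without knockout banded 1. The interaction of Pik3r1 was -1.07 (SE 0.20, adjusted p 0.453), that of Synpo2l 1.83 (SE 0.42, adjusted p 0.453), and that of Cd99l2 -0.03 (SE 0.35, adjusted p 0.991). The values of Pik3r1 and Synpo2l came from banded arrays that lay apart from arrays of all other groups, and those of Cd99l2 from knockout arrays that were low with and without banding.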

How the data were processed

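RNA of 12 mouse heart samples in 4 groups of 3 was measured on Affymetrix arrays, labelled with biotin per the labels' protocols. The deposited values are a linear intensity per probe set; the sources used here do not give software, scaling or build. Of 45101 probe sets, 64 controls, 932 with several genes and 9160 not listed in the platform annotation were left out, and 34741 of the remaining 34945 matched RefSeq by Entrez number, with 0 symbols changed.

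One model with 4 group means was fitted to log2(intensity + 16) of all 12 arrays in limma (3.58.1, R 4.3.3; eBayes with trend, 8 residual degrees of freedom), with two-sided tests adjusted by Benjamini-Hochberg over the 34945. It was tested on simulated data. Named genes are the 15 with the smallest p each way with a mean of at least 100 over the 6 banded arrays and arrays apart (as 0 passed), up to 3 of each pathway list in the direction of its median by smallest p, and Apln, Aplnr, Nppa, Nppb, Acta1, Myh7, Myh6, Atp2a2 and Postn; other members illustrate lists and were chosen after their values were seen. A list gene is represented by its brightest probe set. The comparison, lists and arrays left out were chosen with earlier results of these data known. Array number limits precision. Promoter windows are RefSeq's. Of the 15 named lower genes, 1 is not reported here.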

Additional observations from a re-analysis of the deposited data

Results flagged for a closer look

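In 5 of the 91 named probe sets the knockout arrays lay wholly below the wild-type arrays in banded hearts and wholly above them in sham hearts. Over all 34945 probe sets 127 did so. Many of the named probe sets were chosen for being apart in banded hearts, so these shares cannot be compared. The difference between the banded and the sham genotype difference was -1.42 in Mylk4, -1.07 in Kcnh2, -1.04 in Fitm1, -0.97 in Ccdc141 and -0.53 in Cacnb2 on the log2 scale. It was tested as the interaction of genotype and surgery in limma, where each of the 5 had an adjusted p of 0.453, so none passed. In Ccdc141, for example, sham hearts read 739, 787 and 717 in knockout against 630, 584 and 542 in wild type, and banded hearts 438, 344 and 339 against 594, 535 and 618.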

How the results depend on the processing

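In banded hearts the number of probe sets passing was 0, and it was 1 with a pseudocount of 1, 2 in the upper 60% of probe sets by mean, 1 with the replicate block, 116 with array weights (49 higher, 67 lower) and 335 without both knockout banded 1 and wild-type banded 3. Leaving out 1 array at a time gave 0 to 777: 777 without knockout banded 1, 1 without knockout sham 2 and 0 without any other. With a pseudocount of 64, quantile normalization, median centring, no variance trend, 1 probe set a gene, all probe sets or only the 6 banded arrays it stayed at 0. In sham hearts it was 1, but 0 with 1 probe set a gene, 2 with the replicate block, and 1 to 2 leaving out 1 array at a time. For the interaction it was 0, but 1 with a pseudocount of 64, 1 in the upper 60%, 1 with array weights, 52 without both arrays, and 0 to 169 leaving out 1 array at a time, with 169 without knockout banded 1 and 1 without wild-type sham 3. The replicate block pairs same-numbered arrays, whose deviations from their group means correlated at -0.15 to 0.15 over 18 pairs, so the numbers were not taken as pairs. Of 91 named probe sets, 89 kept their sign in every alternative, 49 passed without knockout banded 1, 30 without both arrays and 36 with array weights. Most of them were chosen from these same arrays by small p, by direction or by arrays apart. Keeping the sign and passing were therefore largely set by that choice and are not separate support. Of 18 list medians, 14 kept their sign; under quantile normalization the median went from -0.22 to 0.04 for sarcomere, from -0.03 to 0.07 for glycolysis and from -0.08 to 0.04 for heat shock genes, and the antioxidant median of 0.00 ranged from -0.05 to 0.05. The cause of these shifts was not tested. Background readings of single probe sets were not used here, so dim values have no detection limit.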
